A study of Mus musculus with 10 samples.

Results

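Early response genes are genes whose transcripts can rise within minutes of a stimulus, before any new protein is made. Many genes of AP-1 factors are counted among them, but not all behave so, and Jund is made constitutively by most cells. The 10 genes described here were taken by name from the 47632 gene rows of a striatal expression table: the Fos family genes Fos, Fosb and Fosl2, the Jun family genes Jun, Junb and Jund, and the early response genes Arc, Npas4, Ier2 and Btg2. The genes were listed by name, and the list was drawn up with earlier results of these data known. One group was of R6/2 hemizygous mice, which carry the first exon of human huntingtin with an expanded CAG repeat as a transgene and are used as a fast model of Huntington's disease, and the other was of isogenic wild-type control mice. The 5 R6/2 and 5 Control libraries were made from total RNA of the striatum taken at 11 weeks of age, so each is a mixture of neurons, glia and vessel cells. The labels name no repeat length, sex, time of day or stimulation before harvest.

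AP-1 is a dimer of basic leucine zipper (bZIP) proteins. Jun proteins pair with each other or with a Fos protein, while Fos proteins bind DNA only with a partner. The sites best known for the dimer fall under the broader letters TGANTCA, where N stands for any base. Spiny projection neurons are the GABA-releasing output cells of the striatum. In them, dopamine acting through D1 receptors and glutamate acting through calcium and kinase signalling switch many of these genes on, by way of the factors CREB and SRF. Arc and Npas4 respond mainly to synaptic activity in neurons, whereas Jun, Junb, Ier2 and Btg2 are induced in many cell types by growth factors and stress.

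Levels are FPKM, fragment counts scaled to transcript length and to the size of the library. Effects of RNA amplification or of overlapping genes on single values were not corrected for here, so orders and sums across genes are approximate. Log2 changes are R6/2 minus Control on log2(FPKM + 1), which understates changes of low genes, and a gene was called at a limma adjusted p under 0.05 over the 15905 genes averaging 1 FPKM or more. The labels do not say that each library is 1 animal, so the spread behind each p-value is that of these samples and may be technical in part. The 18 spiny neuron markers checked were all detected, with a mean level of 4.05 to 4.61 in R6/2 and 6.12 to 6.59 in Control libraries on the log2 scale, and all 18 were called lower in R6/2. In bulk RNA, fewer cells of a type and less RNA per cell cannot be told apart. The mean level of 4 cortical excitatory neuron markers, among them Slc17a7, Neurod6 and Tbr1, was 3.58 to 4.33 in R6/2 and 2.55 to 3.47 in Control libraries, without overlap. Of other markers tested, 5 of 7 direct pathway, 5 of 6 indirect pathway, 5 of 6 interneuron, 5 of 8 myelin, 2 of 8 astrocyte, 1 of 7 microglia and 0 of 8 endothelial and mural markers were called lower, and none higher.

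Arc, Npas4 and Fosl2 were called lower in R6/2 striatum, and none of the 10 genes was called higher. The other 5 genes tested, Fosb, Fos, Junb, Jun and Jund, did not pass. Btg2 and Ier2 averaged under 1 FPKM over the 10 libraries and were not in the fit. Over all genes tested 9.11% were called lower and 5.00% higher. Arc, Npas4 and Fosl2 were also the members whose R6/2 and Control values did not overlap, where 8.58% of all genes tested had every R6/2 value below every Control value and 4.50% had every one above. The 8 tested genes had a median log2 change of -0.47, against 0.00103 over all genes tested. That median was -0.85 with a pseudocount of 0.1 FPKM, -0.19 with one of 5 FPKM and -1.40 over the 3 genes averaging 5 FPKM or more. Without R6/2 4 it was -0.66.

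**Figure D1:**
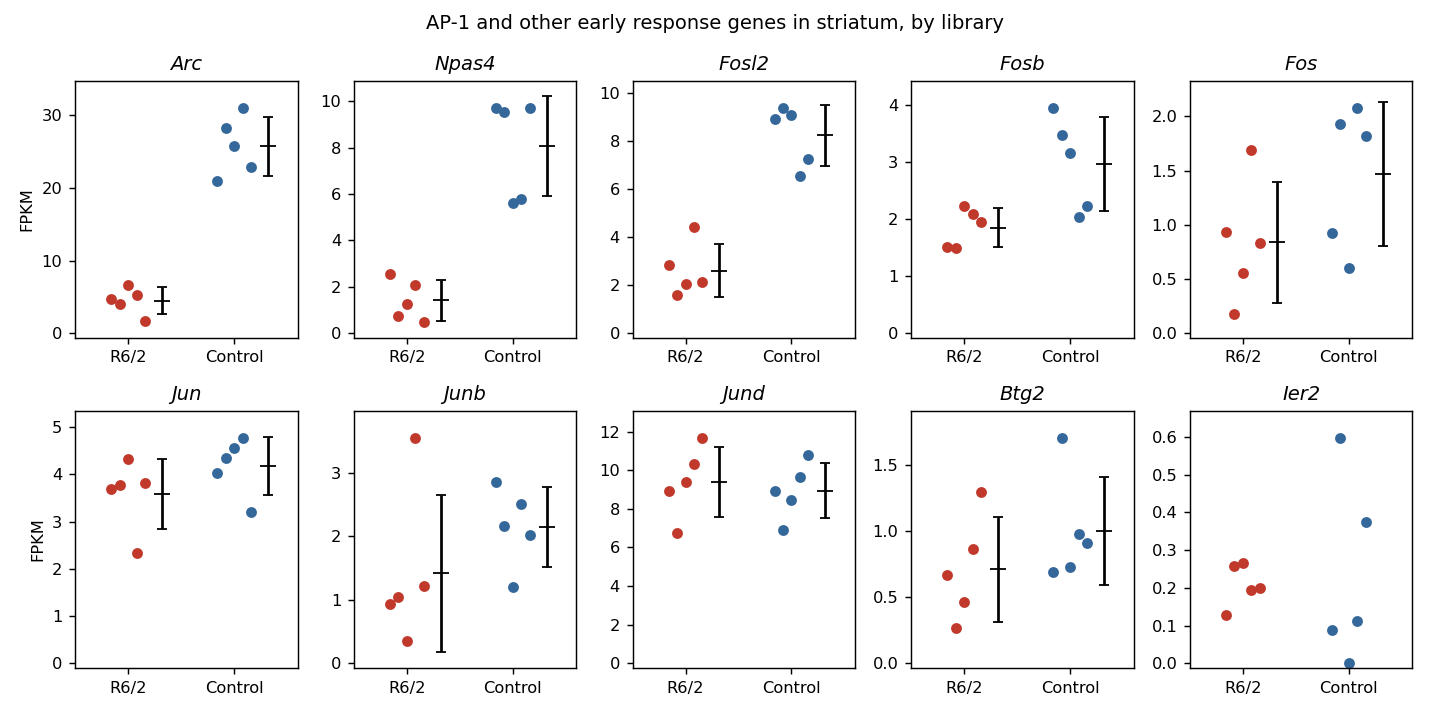
FPKM (vertical axes, linear) of the 10 genes in each R6/2 (red) and Control (blue) library, with the mean and SD (n = 5) beside each group except for Ier2, which was listed at 0 in 1 library. Arc, Npas4 and Fosl2 have every R6/2 library below every Control library, and the other 7 genes overlap.

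Arc encodes a cytoskeleton-associated protein that promotes the removal of AMPA receptors from synapses, and its transcript travels to dendrites. Arc (ENSMUSG00000022602.14, GRCm38 chromosome 15, 74669083 to 74672570, minus strand, 3 exons) was at 4.76, 4.07, 6.66, 5.29 and 1.67 FPKM in R6/2 libraries 1 to 5, and at 20.9, 28.3, 25.7, 31.0 and 22.8 FPKM in Control libraries 1 to 5. Every R6/2 library was far below the lowest Control library, and R6/2 5 was the lowest of all. The mean was 4.49 ± 1.84 FPKM in R6/2 and 25.7 ± 4.05 FPKM in Control (SD, n = 5), so the R6/2 mean was 17.4% of the Control mean. The log2 change was -2.35 (SE 0.256, limma adjusted p = 0.000297), and 136 of the 15905 genes tested had a lower one. The call was made under every one of the 20 other settings run, with changes of -2.68 to -1.71.

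Npas4 encodes a neuron-restricted factor of the basic helix-loop-helix and PAS type that pairs with ARNT proteins and is induced by calcium entry. Npas4 (ENSMUSG00000045903.8, chromosome 19, 4984355 to 4990316, minus strand) was at 2.54, 0.721, 1.26, 2.10 and 0.473 FPKM in R6/2 libraries 1 to 5, and at 9.70, 9.51, 5.62, 5.77 and 9.70 FPKM in Control libraries 1 to 5. The R6/2 libraries again lay below all Control libraries, and R6/2 5 was again the lowest. The mean was 1.42 ± 0.883 FPKM in R6/2 and 8.06 ± 2.16 FPKM in Control (SD, n = 5), 17.6% of the Control level. The log2 change was -1.95 (SE 0.271, limma adjusted p = 0.00119). A pseudocount of 0.1 FPKM made it -2.61 and one of 5 FPKM made it -1.02, and the call was made under all 19 settings in which the gene was tested.

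Npas4, Btg2 and Fos are shown because the letters TGACGT, the core of the CREB-binding element CRE, were found on either strand within 250 bases before their RefSeq starts (RefSeq, GRCm38.p6), and of these genes Npas4 was called lower, Fos did not pass and Btg2 was too low for the fit. RefSeq promoters were at hand for 8 of the 10 genes, and 3 of the 8 held the core, against 6.47% of the 32851 promoters in the table. In the sequences below, written 5′ to 3′ on the gene's strand, capitals mark matches to the motifs named beside them. Npas4 held the core at 2 places (chr19:4990129-4990158, minus strand), from position -187 to -158 relative to the RefSeq start, a stretch that lies inside the longer GENCODE gene. Btg2 held the full palindrome TGACGTCA (chr1:134079303-134079332, minus strand), which 1.55% of promoters held. Fos held the core at -66 and a TATAAA box at -33 (chr12:85473770-85473889, plus strand), and TATAAA was in 12.4% of promoters.
Npas4: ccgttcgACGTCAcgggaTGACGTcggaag
Btg2: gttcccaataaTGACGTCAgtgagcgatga
Fos: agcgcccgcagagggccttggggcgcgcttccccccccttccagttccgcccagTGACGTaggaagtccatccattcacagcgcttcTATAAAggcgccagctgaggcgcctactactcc
No match to TGANTCA or to the CArG box of SRF was found in the 250 bases before the start in any of the 8 promoters. Of all promoters 6.75% and 1.47% held them. Sites farther from the start were not searched, and Arc and Ier2 had no promoter at hand, so sites elsewhere cannot be judged. A match or its absence is a description of these letters only.

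Within the Fos family the decrease passed for Fosl2 alone, although all 3 genes had lower means in R6/2. Fosl2 encodes FRA-2, a Fos protein without the strong activation domain of FOS. Fosl2 (ENSMUSG00000029135.10, chromosome 5, 32135801 to 32157842, plus strand) was at 2.82, 1.58, 2.06, 4.40 and 2.13 FPKM in R6/2 libraries 1 to 5, and at 8.90, 9.37, 9.09, 6.55 and 7.23 FPKM in Control libraries 1 to 5. The highest R6/2 library, R6/2 4, stayed below the lowest Control library, Control 4. The mean was 2.60 ± 1.10 FPKM in R6/2 and 8.23 ± 1.26 FPKM in Control (SD, n = 5), 31.6% of the Control level, with a log2 change of -1.40 (SE 0.193, limma adjusted p = 0.00117). With the cortical marker signal in the model the change was -1.05 and did not pass (limma adjusted p = 0.0582), while the other 19 settings gave the call.

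Fosb encodes FOSB and, by alternative splicing, the stable short form ΔFOSB that builds up in striatum after repeated stimulation. The FPKM table gives 1 value per gene, so the forms were not separated. Fosb (ENSMUSG00000003545.3, chromosome 7, 19302696 to 19310051, minus strand) was at 1.51, 1.49, 2.22, 2.10 and 1.94 FPKM in R6/2 libraries 1 to 5, and at 3.94, 3.47, 3.16, 2.03 and 2.22 FPKM in Control libraries 1 to 5. All R6/2 values were below the Control mean, but Controls 4 and 5 lay within the R6/2 range or at its upper edge. The log2 change was -0.46 (95% interval -0.82 to -0.10), which did not pass over all genes tested (limma adjusted p = 0.0947), and it passed in none of the other 19 settings (adjusted p 0.0559 to 0.615).

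Fos, the founding member of the family and the usual marker of recently active neurons, was low in every library. Fos (ENSMUSG00000021250.13, chromosome 12, 85473890 to 85477273, plus strand) was at 0.935, 0.179, 0.554, 1.69 and 0.832 FPKM in R6/2 libraries 1 to 5, and at 0.921, 1.93, 0.605, 2.08 and 1.82 FPKM in Control libraries 1 to 5. The groups overlapped widely, and within each group the highest library was several times the lowest. The means were 0.838 ± 0.560 FPKM in R6/2 and 1.47 ± 0.661 FPKM in Control (SD, n = 5), with a log2 change of -0.43 (95% interval -1.06 to 0.19, limma adjusted p = 0.361), and without R6/2 2 it was -0.29 (0.561). The interval reaches from -1.06 to a small positive change, so these libraries do not show that Fos was alike in the groups. The difference between the change of Fosl2 and that of Fos was not tested.

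None of the Jun family genes passed. Jund, which encodes a Jun protein that most cells make constitutively, was at 8.94, 6.76, 9.42, 10.3 and 11.7 FPKM in R6/2 libraries 1 to 5, and at 8.92, 6.91, 8.44, 9.64 and 10.8 FPKM in Control libraries 1 to 5. The groups covered almost the same range. Its log2 change was 0.06 (95% interval -0.27 to 0.39, limma adjusted p = 0.834), so a decrease as large as that of Fosl2 lies outside the interval, and the sign turned without R6/2 5 (-0.01) or Control 2 (-0.02). Jund (ENSMUSG00000071076.5, chromosome 8, 70698949 to 70700616, plus strand) is a single exon, of which 877 bases overlap Gm11175 on the other strand, a gene model with under 1e-05 FPKM in every library.

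Jun encodes c-JUN, the target of the stress kinase JNK. Jun (ENSMUSG00000052684.4, chromosome 4, 95049034 to 95052222, minus strand, a single exon) was at 3.69, 3.77, 4.32, 2.33 and 3.80 FPKM in R6/2 libraries 1 to 5, and at 4.03, 4.35, 4.55, 4.76 and 3.20 FPKM in Control libraries 1 to 5. R6/2 4 was the lowest of all libraries, and the remaining R6/2 values lay within the Control range. The log2 change was -0.19 (95% interval -0.50 to 0.13, limma adjusted p = 0.451), and without R6/2 4 it was -0.075 (limma adjusted p = 0.718). Its exon shares 232 bases with the antisense gene Junos, which was at 0.824 to 1.95 FPKM in R6/2 and 0.438 to 2.87 FPKM in Control libraries, and no source used here says whether the authors' FPKM were computed by strand.

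The Jun promoter is shown because c-JUN is known to bind its own gene, at a distal and a proximal AP-1-like site. The letters of these sites, TTACCTCA and TGACATCA, were found at -164 and -45 from the RefSeq start (GRCm38.p6, chr4:95052223-95052422, minus strand, 5′ to 3′, sites in capitals), and on either strand 0.728% and 2.93% of all promoters held them.
Jun: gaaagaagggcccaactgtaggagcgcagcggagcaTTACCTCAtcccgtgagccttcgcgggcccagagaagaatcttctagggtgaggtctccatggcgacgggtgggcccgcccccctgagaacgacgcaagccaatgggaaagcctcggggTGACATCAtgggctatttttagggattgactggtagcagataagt
None of the other 7 promoters searched held either site.

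Junb encodes a Jun protein that is a weaker activator than c-JUN. Junb (ENSMUSG00000052837.5, chromosome 8, 84974484 to 84978718, minus strand) was at 0.932, 1.04, 0.358, 3.54 and 1.21 FPKM in R6/2 libraries 1 to 5, and at 2.86, 2.16, 1.20, 2.51 and 2.01 FPKM in Control libraries 1 to 5. R6/2 4 had the highest value of all 10 libraries, while 3 of the other R6/2 libraries lay below the lowest Control library. The log2 change was -0.48 (95% interval -1.16 to 0.20, limma adjusted p = 0.352), and without R6/2 4 it was -0.74 (limma adjusted p = 0.0638) and without R6/2 3 it was -0.30 (0.565). The annotation of Junb shares 173 exonic bases with Prdx2 on the other strand, which was at 39.9 to 54.6 FPKM in R6/2 and 25.3 to 62.4 FPKM in Control libraries, and its part in the Junb values was not tested.

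Btg2, an antiproliferative gene whose protein recruits the deadenylases that shorten mRNA tails, had a mean below the filter. Btg2 (ENSMUSG00000020423.6, chromosome 1, 134075170 to 134079120, minus strand) was at 0.668, 0.269, 0.461, 0.862 and 1.30 FPKM in R6/2 libraries 1 to 5, and at 0.691, 1.70, 0.726, 0.981 and 0.908 FPKM in Control libraries 1 to 5. The groups overlapped, and the difference of the log2 means was -0.23 (exact permutation test over libraries, two-sided, p = 0.246). Without Control 2, the highest of the Control libraries, the difference was -0.12 (exact permutation p = 0.484), and without R6/2 5 it was -0.35 (exact permutation p = 0.0794). Ier2, a nuclear early response gene of a single exon (ENSMUSG00000053560.4, chromosome 8, 84661331 to 84662852, minus strand), had the lowest level of the 10 genes. It was at 0.129, 0.259, 0.267, 0.195 and 0.200 FPKM in R6/2 libraries 1 to 5, and at 0.0887, 0.597, 0.111 and 0.375 FPKM in Controls 1, 2, 4 and 5, and was listed at 0 in Control 3. The 5 R6/2 values lay within the spread of the Control values (exact permutation test, two-sided, p = 0.944). A listed 0 in an FPKM table can be a failed estimate, and differences at such levels were not detectable here.

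The order of the levels differed between the groups. In R6/2 libraries Jund was the highest of the 10 genes in 5 of 5, with Arc, Jun and Fosl2 following at means of 4.49, 3.58 and 2.60 FPKM. In Control libraries Arc was the highest in 5 of 5, and Jund, Fosl2 and Npas4 followed at means of 8.94, 8.23 and 8.06 FPKM, within each other's spread. The R6/2 mean of Npas4, 1.42 FPKM, was below those of Jun and Fosb and level with that of Junb, whereas in Control libraries Npas4 was above all 3. Fos, Btg2 and Ier2 were the 3 lowest genes in each group.

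Summed by family, Fos family transcripts were lower in every R6/2 library than in any Control library, while the Jun family sums overlapped. The sums are of transcripts in mixed tissue, and protein was not measured. The summed level of Fos, Fosb and Fosl2 was 5.26, 3.25, 4.83, 8.19 and 4.91 FPKM in R6/2 libraries 1 to 5, and 13.8, 14.8, 12.9, 10.7 and 11.3 FPKM in Control libraries 1 to 5. The summed level of Jun, Junb and Jund was 14.4 ± 2.07 FPKM in R6/2 and 15.3 ± 1.42 FPKM in Control (SD, n = 5), with overlapping ranges. The ratio of the Jun family sum to the Fos family sum was 2.88 ± 0.639 in R6/2 and 1.23 ± 0.269 in Control (SD, n = 5). It was 1.98 to 3.56 in R6/2 and 0.909 to 1.59 in Control libraries, so in Control 2 the Fos family sum was the higher one. Fosl2 made up 48.4 ± 5.34% of the Fos family sum in R6/2 and 64.9 ± 3.48% in Control, and the share of Fosb was 37.1 ± 9.55% in R6/2 and 23.1 ± 3.91% in Control. Jund alone held 47.8 ± 4.40% of the 6-gene sum in R6/2 and 32.1 ± 5.60% in Control, without overlap. These sums and shares follow from the single genes above and carry no test of their own.

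**Figure D2:**
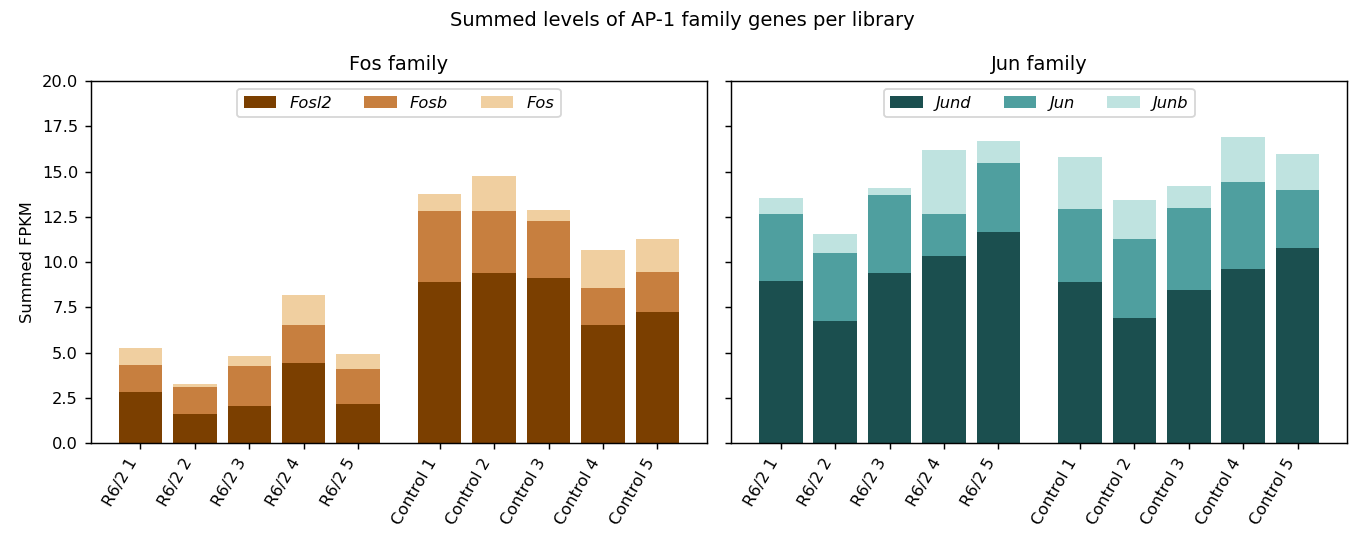
Summed FPKM (linear axis) of the Fos family (left) and the Jun family (right) in each R6/2 and Control library, divided by gene. Fos family sums are 3.25 to 8.19 FPKM in R6/2 and 10.7 to 14.8 FPKM in Control libraries, while Jun family sums overlap.

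The libraries of a group did not rank alike for all genes. R6/2 4 was the highest R6/2 library for Fos, Fosl2 and Junb and the lowest for Jun. R6/2 2 was the lowest R6/2 library for 5 genes, Fos, Fosb, Fosl2, Jund and Btg2, and R6/2 5 for Arc and Npas4. Control 3 was the lowest Control library for Fos, Junb, Npas4 and Ier2. The 5 tested genes outside the list whose deviations from their group means ran most like those of Fos were Smyd2, Ifit3b, Rps19bp1, Ddx49 and Tagap1. Their Pearson r was 0.895 to 0.903 over the 10 libraries, the highest among all genes tested and given as a description only.

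Set against the spiny neuron markers of the same library, Arc and Npas4 did not pass with the pseudocount and model used throughout, but each passed in some other setting. The 18 spiny neuron markers had a median log2 change of -1.87, and their mean was subtracted from each library before all genes were fitted again. On that scale 91.1% of all genes tested were called higher and 0.170% lower, so a call of higher is the background there. Fos, Fosb, Fosl2, Jun, Junb and Jund were called higher on it, as most genes were. Fos and Junb (Control means 1.47 and 2.15 FPKM) were too low on log2(FPKM + 1) to fall as far as the marker mean. A positive change on this scale was thus set in advance for both. Fos, at 1.52 (limma adjusted p = 0.00106), lost its call of higher with a pseudocount of 0.1 FPKM (1.19, 0.0644) and with the cortical signal added (0.98, 0.0526). Arc had a change of -0.41 (95% interval -1.12 to 0.31, limma adjusted p = 0.247) and Npas4 one of -0.0015 (95% interval -0.66 to 0.66, limma adjusted p = 0.996). Arc was called lower with the cortical signal added (-1.09, limma adjusted p = 0.0232) and without R6/2 3 (-0.64, 0.0459). Npas4 was called higher with a pseudocount of 5 FPKM (0.68, limma adjusted p = 0.00371). Fosl2 was at 0.55 (95% interval 0.15 to 0.96, limma adjusted p = 0.0136), between these genes and Jund at 2.01 (limma adjusted p = 3.44e-06). The call of Fosl2 on this scale was lost with a pseudocount of 0.1 FPKM (0.35, limma adjusted p = 0.184), with the cortical signal added (0.54, 0.0848) and with the replicate number as a block (0.55, 0.053).

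**Figure D3:**
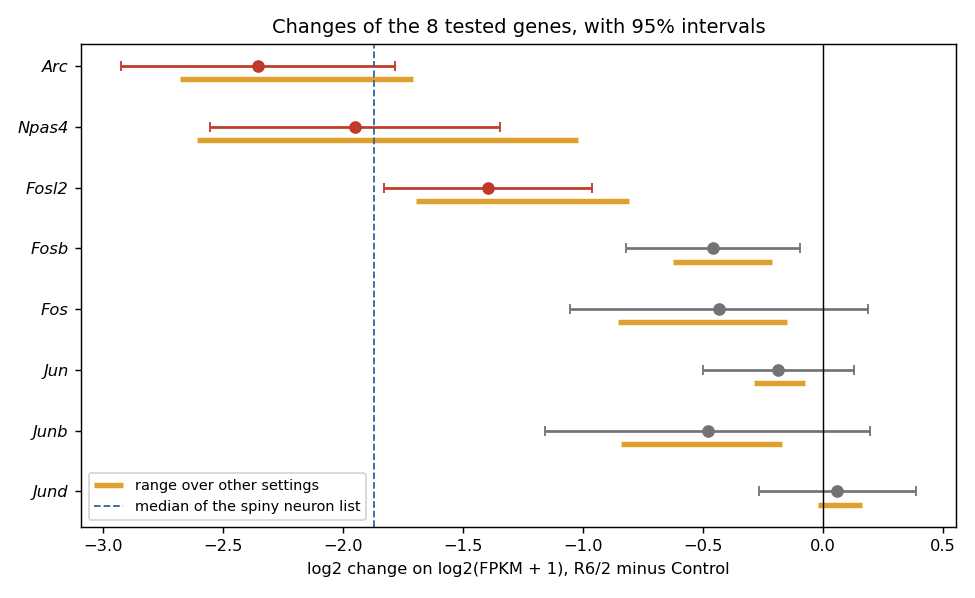
Log2 change on log2(FPKM + 1), R6/2 minus Control, of the 8 tested genes, with 95% intervals (points; red where the limma adjusted p was under 0.05), and the range over the other settings tried (orange). The intervals of Arc and Npas4 include the median of the spiny neuron markers (-1.87, dashed), and those of Fos, Jun, Junb and Jund include 0.

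The cortical marker signal moved with the groups, and within groups Fosl2 and Fos stood to it as follows. Fosl2 was lowest in R6/2 2 and R6/2 3 (1.58 and 2.06 FPKM), the R6/2 libraries with the most cortical signal (4.09 and 4.33). It was highest among R6/2 in R6/2 4 (4.40 FPKM), which had the least (3.58). R6/2 1 and R6/2 5 had little more signal (3.62 and 3.66), with Fosl2 at 2.82 and 2.13 FPKM, so R6/2 5 was near R6/2 3. Among Control libraries Fosl2 was at 8.90 and 9.09 FPKM in Controls 1 and 3, which had the least signal (2.75 and 2.55), and at 9.37, 6.55 and 7.23 FPKM in Controls 2, 4 and 5 (3.44, 3.47 and 3.39). Fos was likewise lowest in R6/2 2 and R6/2 3 (0.179 and 0.554 FPKM) and highest among R6/2 in R6/2 4 (1.69 FPKM), with 0.935 and 0.832 FPKM in R6/2 1 and R6/2 5. In Control libraries Fos ran the other way, at 0.921 and 0.605 FPKM in Controls 1 and 3 and at 1.82 to 2.08 FPKM in Controls 2, 4 and 5. After adding the signal as a term, the log2 changes were -2.68 in Arc (adjusted p by limma = 0.00626), -1.89 in Npas4 (0.0438) and -0.61 in Fos (0.551). Arc and Npas4 passed there, and Fosl2 did not. The part of cortical tissue in these results was not tested, since the signal and the group can hardly be told apart.

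**Figure D4:**
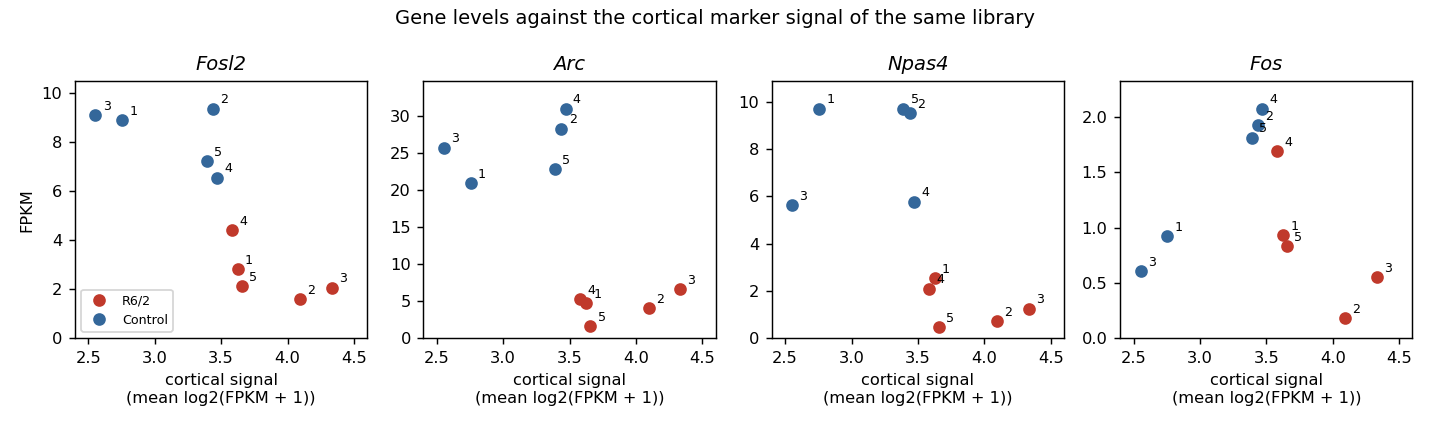
FPKM of Fosl2, Arc, Npas4 and Fos (vertical axes, linear) against the mean log2(FPKM + 1) of 4 cortical neuron markers in the same library (horizontal axis), with R6/2 in red, Control in blue and replicate numbers beside the points. All R6/2 libraries lie at 3.58 or above and all Control libraries at 3.47 or below on the horizontal axis, so the groups do not overlap in the signal.

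Among other rapidly induced genes, many were called lower. Of 22 tested genes of the early response list outside the 10, 12 were called lower and 2 higher, with a median log2 change of -0.69, against 9.11% and 5.00% over all genes tested. The zinc finger factor genes Egr1, Egr2 and Egr4 had the smallest p, with log2 changes of -1.48, -2.56 and -1.13 (limma adjusted p = 7.4e-05, 8.08e-05 and 0.000199). Egr2 was at 1.24 ± 0.807 FPKM in R6/2 and 11.7 ± 1.77 FPKM in Control (SD, n = 5). Klf6 and Nfkbia, the genes called higher, are known as targets of growth and NF-κB signals. In 12 of the 20 other settings fewer than 2 genes of the list were called higher. Of 12 tested genes that activity induces later, 5 were called lower and none higher, with a median of -0.61: Homer1, Plk2, Rgs2, Inhba and Nptx2. Rgs2, a regulator of G proteins, was at 30.6 ± 3.18 FPKM in R6/2 and 116 ± 21.2 FPKM in Control, and Inhba, which encodes an activin subunit, was at 6.26 ± 1.59 FPKM in R6/2 and 26.6 ± 3.54 FPKM in Control (SD, n = 5).

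Of 28 genes upstream of the early response, 15 were called lower and 2 higher, with a median of -0.40. Over all genes tested 9.11% were called lower and 5.00% higher. The smallest p were those of the calcineurin gene Ppp3ca (-1.29, limma adjusted p = 1.12e-05), the CREB kinase gene Camk4 (-1.62, 2.16e-05) and the adenylyl cyclase gene Adcy5 (-2.20, 3.06e-05). Adcy5, Gnal and Drd1 of this list also mark spiny neurons. Srf had a log2 change of -0.64 and the CREB coactivator gene Crtc1 one of -0.60 (limma adjusted p = 0.00338 and 0.00298), whereas Creb1 had a change of 0.16 (0.449). With the cortical signal as a term 6 of the 28 were called lower, where 506 of the 15905 genes tested were. The 2 called higher were Mapk8, which encodes JNK1 (0.26, 0.0465), and the CREB-binding protein gene Crebbp (0.44, 0.0491), and in 11 of the 20 other settings no gene of the list was called higher.

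Other bZIP factors, some of which can pair with Jun or Fos proteins, were also checked. Of their 8 tested genes none was called lower and 2 were called higher, against 9.11% and 5.00% over all genes tested. Atf4 was one of them, the factor of the integrated stress response, at 27.4 ± 3.25 FPKM in R6/2 and 16.5 ± 2.50 FPKM in Control (SD, n = 5; log2 change of 0.70, adjusted p by limma = 0.00419). With the cortical signal added Atf4 had a change of 0.42 and did not pass (0.146), and it passed in the other 19 settings. No gene of the list was called higher with that signal added, where 112 of the 15905 genes tested were. Jdp2, which encodes a repressor that dimerizes with Jun proteins, had a change of 0.18 (0.517). Among genes reported in rodents as targets of ΔFOSB in striatum, Pdyn, which encodes the precursor of dynorphin, had a change of -2.48 (0.000542). The AMPA receptor gene Gria2 had one of -0.28 (0.0342), lost in 12 of the 20 other settings, and Cdk5 one of -0.29 (0.382). Pdyn was also among the direct pathway markers called lower, and a link of these changes to Fosb was not tested.

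Of 4 tested genes of the Npas and Arnt families, 1 was called lower and none higher, against 9.11% and 5.00% over all genes tested. Npas2, a clock factor of the Npas family, was at 4.59 ± 0.922 FPKM in R6/2 and 17.2 ± 2.18 FPKM in Control (SD, n = 5; log2 change of -1.71, adjusted p by limma = 3.98e-05). The partner genes of Npas4, Arnt and Arnt2, had changes of -0.11 and -0.21 (0.676 and 0.414). Of 5 tested genes of the Btg and Tob family and their deadenylases none was called, as most genes were not. Tob2 was at 0.32 (0.259), Cnot7 at -0.16 (0.596) and Btg1 at 0.11 (0.645).

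**Figure D5:**
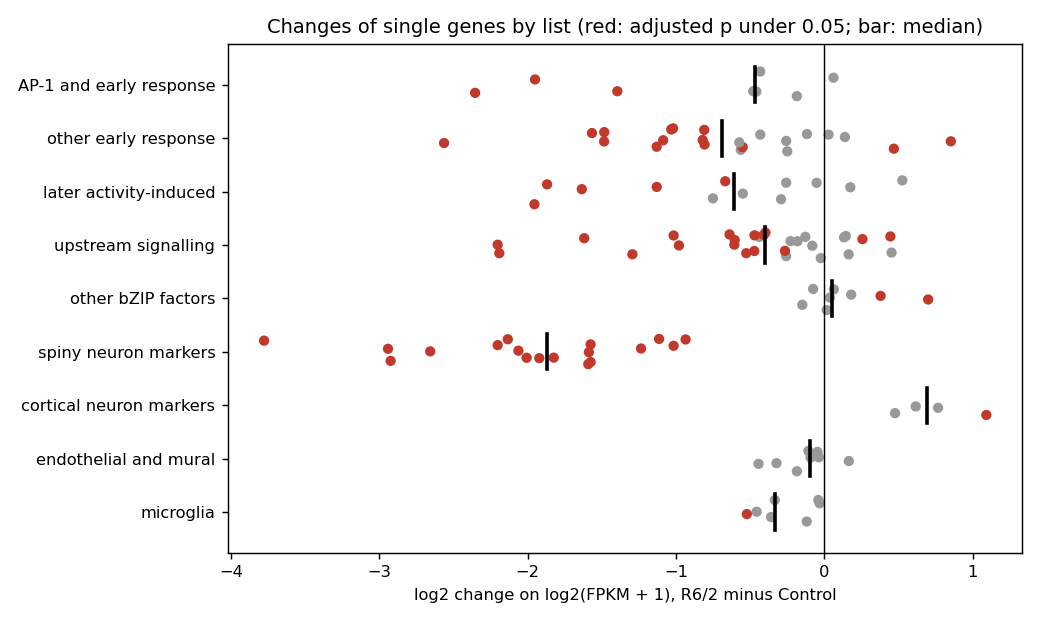
Log2 change on log2(FPKM + 1), R6/2 minus Control, of each tested gene (points; red where the limma adjusted p was under 0.05) by gene list, with the list's median as a bar. The median of the AP-1 and early response genes (-0.47) lies between those of the spiny neuron markers (-1.87) and the cortical neuron markers (0.69). So do the medians of all the remaining lists drawn. Arc and Npas4 lie below the spiny neuron median.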

How the data were processed

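The authors deposited 1 table of FPKM values for 10 libraries and 47632 genes. The submitters' processing notes name Cufflinks, Cuffdiff, STAR 2.4.0 and the build GRCm38. Their roles, the annotation and the strand setting are not given. Per the labels' protocols, RNA was amplified (NuGEN Ovation v2) and made into Nextera libraries. FPKM are not counts, and 15.7 to 22.1% of low values lay within 0.05 of whole-read steps, where evenly spread values would give 10%, so depth stays unknown and counting intervals are left out.

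Symbols came by stable Ensembl ID (47220 matched), positions from GENCODE M21. No column lacked a sample (0). limma 3.58.1 (R 4.3.3), with a mean-variance trend, was fitted on log2(FPKM + 1) for the 15905 genes averaging 1 FPKM or more, with Benjamini-Hochberg adjustment, and was tested on simulated data. Genes under the filter had exact permutation tests (smallest p 0.00794). Named were the 10 members, the 3 tested genes of each list with the smallest p and the 5 nearest to Fos; Nptx2, Plk2, Klf6, Nfkbia, Srf, Crtc1, Creb1, Mapk8, Crebbp and overlapping genes were chosen after their values were seen. Some genes that the rule names are not reported here. The members and lists were chosen with earlier results of these data known. Alternatives were other pseudocounts, filters, scalings, variance models, a cortical covariate, a replicate block and leaving out each library.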

Additional observations from a re-analysis of the deposited data

Results flagged for a closer look

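Of the 20 groups of 5 values checked (10 genes in R6/2 and in Control libraries), 2 held a library far from the others, where chance flags about 1 in 20. Junb was at 3.54 FPKM in R6/2 4, with the next R6/2 library at 1.21 FPKM. Btg2 was at 1.70 FPKM in Control 2, with the next Control library at 0.981 FPKM. The cause was not tested in either case.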

How the results depend on the processing

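Of 155 values of the tested members under the alternatives, 152 kept their direction and their side of the threshold, 1 lost its call (Fosl2 with the cortical signal, -1.05, limma adjusted p = 0.0582) and 2 turned sign (Jund, -0.018 to 0.16 when 1 library was left out). Leaving out 1 library gave 3 members called lower and 0 higher each time, 1144 to 1493 genes called lower and 532 to 871 higher over all genes, and, relative to the spiny neuron markers, 6 members higher and 0 to 1 lower (1, Arc, without R6/2 3). The cortical signal in the model gave 506 genes lower and 112 higher, and 1 member, Arc, lower relative to the spiny neuron markers (-1.09, limma adjusted p = 0.0232). Rescaling of protein-coding genes gave 1133 lower and 1520 higher and quantile normalization 1277 and 1109, against 1449 and 795. A minimum mean of 5 FPKM left 3 members, of which 2 were higher relative to the spiny neuron markers. The replicate numbers did not pair the libraries (correlations of -0.0528 to 0.0495 between same-numbered libraries, and 1 of 5 matched its own number best), and the replicate block gave 370 genes called higher. On the spiny neuron scale Npas4 turned sign and was called higher with a pseudocount of 5 FPKM (0.68, limma adjusted p = 0.00371), and was at 0.052 with array weights and at -0.16 to 0.18 without 1 library. Ier2 was at 0.20 with a pseudocount of 0.1 FPKM, at 0.010 after rescaling and at -0.079 to 0.090 without 1 library, Jdp2 at -0.073 with the cortical signal, and Arnt at -0.18 to 0.0076 without 1 library. The cause of these shifts was not tested. Depth is unknown, and precision rests on 5 libraries a group.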
